A study of Homo sapiens with 8 samples.

Results

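The polypyrimidine tract binding protein genes PTBP1, PTBP2 and PTBP3 and 2 genes for proteins that work with them, RAVER1 and MATR3, were examined isoform by isoform after PTBP1 knockdown (KD). Transcripts were taken as members when their Ensembl identifier belongs to 1 of these 5 genes in GENCODE version 44, out of 62638 genes in the table. They make up 101 of 254070 annotated transcripts, of which 45 had a count in any library and 25 had at least 10 counts. The cells were MOLM-13, a human acute myeloid leukemia line with a KMT2A fusion, all given doxycycline (dox) for 9 days. Cells of 4 replicates carried a lentiviral, dox-inducible shRNA against PTBP1 (shPTBP1), and cells of 4 replicates carried a scrambled shRNA in the same kind of vector (shSCR, named shControl in the sample labels). With dox both vectors also make a truncated nerve growth factor receptor, and both make mCherry without it. As 1 shRNA was used per group, effects of that shRNA other than loss of PTBP1 cannot be told apart from it, and p values cover the spread between these replicates. Counts from nanopore cDNA reads were given per annotated transcript, so that each count is assigned to 1 isoform. How reads that fit several isoforms were shared out is not given in the sources used here.

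PTBP1 binds pyrimidine-rich RNA, often in the intron before an alternative exon, and mostly represses that exon. PTBP2 is the paralog known from neurons and PTBP3 the one first described in blood cells. The 3 proteins share 4 RNA recognition motifs and many targets. In textbook accounts PTBP1 causes skipping of an exon of 34 bases in PTBP2 RNA and in its own RNA, and skipping shifts the reading frame and sends the RNA to nonsense-mediated decay. RAVER1 (raver 1) is a ribonucleoprotein that binds PTBP1 as a corepressor, and MATR3 (matrin 3) is a nuclear matrix protein that binds both RNA and PTBP1.

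The 34-base exon is present in all 3 paralogs and lies at chr19:807869-807902 in PTBP1 (plus strand), chr1:96806419-96806452 in PTBP2 (plus strand) and chr9:112231380-112231413 in PTBP3 (minus strand) of GRCh38. It is coding in each, and its sequences are shown because keeping or skipping it sets, in textbook accounts, whether PTBP2 RNA is stable. Read on the transcribed strand from 5′ to 3′, with the 19 of 34 bases that all 3 share in capitals, the exons are as follows.
PTBP1: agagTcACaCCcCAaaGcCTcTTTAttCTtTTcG
PTBP2: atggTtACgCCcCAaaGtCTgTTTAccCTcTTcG
PTBP3: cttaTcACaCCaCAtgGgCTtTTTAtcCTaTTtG
The exon of PTBP1 was identical to that of PTBP2 at 25 of 34 bases (73.5%) and to that of PTBP3 at 22 (64.7%), while PTBP2 and PTBP3 shared 21 (61.8%). The 100 bases just before the exon follow on the transcribed strand, with the motifs CTCTCT and TCTT, short forms of PTB binding sequences, in capitals where they occur.
PTBP1: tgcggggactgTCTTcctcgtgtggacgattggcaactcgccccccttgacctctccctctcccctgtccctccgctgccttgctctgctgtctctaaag
PTBP2: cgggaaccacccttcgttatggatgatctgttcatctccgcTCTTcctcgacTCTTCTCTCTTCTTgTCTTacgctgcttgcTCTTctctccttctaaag
PTBP3: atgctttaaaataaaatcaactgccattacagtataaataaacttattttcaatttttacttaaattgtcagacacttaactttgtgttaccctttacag

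The PTBP2 window held 6 copies of TCTT and 1 of CTCTCT, with 1 TCTT and the CTCTCT overlapping. The PTBP1 window held 1 TCTT and no CTCTCT, and the PTBP3 window held neither. Among 155518 windows of the same length before internal coding exons of all genes, counted on the transcribed strand only, 62.4% held TCTT, with a median of 1 copy, and 8.98% held CTCTCT. At least 6 copies of TCTT were found in 0.188% of them. The windows of PTBP1, PTBP2 and PTBP3 held 69, 73 and 56 pyrimidines, beside a median of 55. A match is a description of the letters and not of binding, and the 3 windows were chosen as those of this exon.

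**Figure D1:**
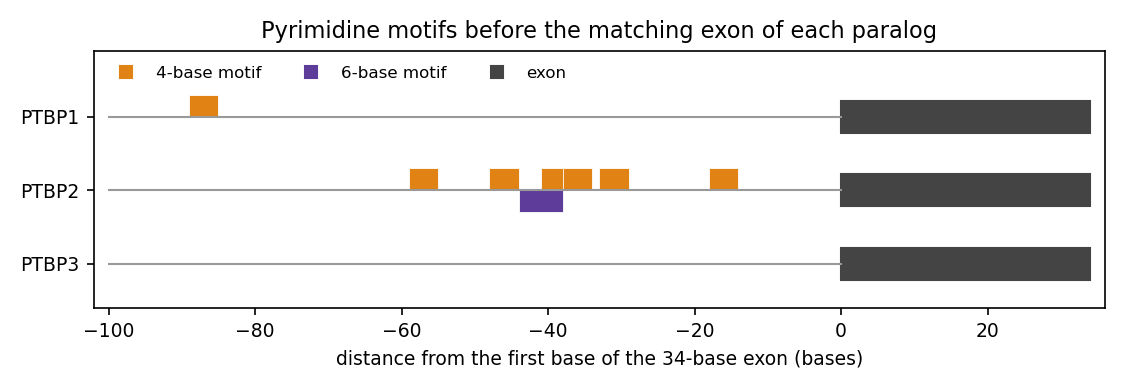
Positions of the 4-base motif TCTT (orange) and the 6-base motif CTCTCT (purple) in the 100 bases before the 34-base exon (dark box) of PTBP1, PTBP2 and PTBP3; the horizontal axis is the distance from the first base of the exon in bases. The 6 copies of TCTT of PTBP2 lie between 59 and 15 bases before the exon.

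The libraries held between 1528449 and 1613342 counts. Markers of the labelled cell type were present but uneven, as all 8 markers on a list of myeloid leukemia genes had counts. They summed to 731 to 947 counts per library after shPTBP1 and 692 to 702 after shSCR. Most of these counts were on LYZ, with 446 to 668 after shPTBP1 and 402 to 461 after shSCR. FLT3 had 3 to 12 counts per library, MEIS1 had 1 to 5, and SPI1 had 1 count in all. Of the neuronal markers RBFOX3, ELAVL3, ELAVL4, SNAP25 and NEUROD1, which were listed because PTBP2 is known from neurons, RBFOX3, ELAVL3 and NEUROD1 were at 0 in every library. The list summed to 14 to 24 counts per library after shPTBP1 and 4 to 19 after shSCR, nearly all of them on SNAP25 (log2 fold change 1.02, edgeR adjusted p = 0.197). Lymphoid, erythroid and epithelial markers summed to 0 or 1 count per library.

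At the gene level PTBP1 fell, PTBP2 and MATR3 rose, and PTBP3 and RAVER1 did not pass the test. Thus 3 of 5 members were called by the quasi-likelihood test of edgeR (adjusted p under 0.05), where 5.54% of the 7596 genes tested were called, 3.19% lower and 2.36% higher. Of these 3, PTBP1 is the target of the shRNA, and PTBP2 entered the test only through its counts after shPTBP1. The count of 3 is therefore not to be read against that share. PTBP1, the targeted gene, had 10, 15, 13 and 23 counts in the shPTBP1 libraries and 65, 90, 64 and 78 in the shSCR libraries. Every KD library was below every control, and 20.8% of the control level remained. As these are bulk RNA, a lower level in every cell and loss in only some of the cells cannot be told apart. PTBP2 had 194, 199, 190 and 185 counts after shPTBP1 and 1, 2, 2 and 4 after shSCR. The groups were far apart. Over all genes tested, 12.7% had groups that did not overlap, 6.37% with the KD libraries lower and 6.31% with them higher.

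MATR3 had 477, 353, 375 and 374 counts after shPTBP1 and 314, 262, 256 and 285 after shSCR. All KD libraries were above all controls, with replicate 1 of shPTBP1 the highest, and the log2 fold change was 0.52 (SE 0.09, 95% interval 0.32 to 0.71, edgeR adjusted p = 0.0054). PTBP3 had 62, 76, 74 and 86 counts after shPTBP1 and 66, 59, 49 and 58 after shSCR. The groups overlapped through replicate 1 of each, at 39.2 and 40.6 normalized counts per 1000000 (CPM). The log2 fold change of PTBP3 was 0.38 (SE 0.13, 95% interval 0.10 to 0.66), and the edgeR adjusted p was 0.118. RAVER1 had 47, 35, 45 and 48 counts after shPTBP1 and 27, 53, 30 and 45 after shSCR. Its groups overlapped fully, with a log2 fold change of 0.19 (SE 0.21, 95% interval -0.27 to 0.65, edgeR adjusted p = 0.689), which leaves room for a modest change in either direction.

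**Figure D2:**
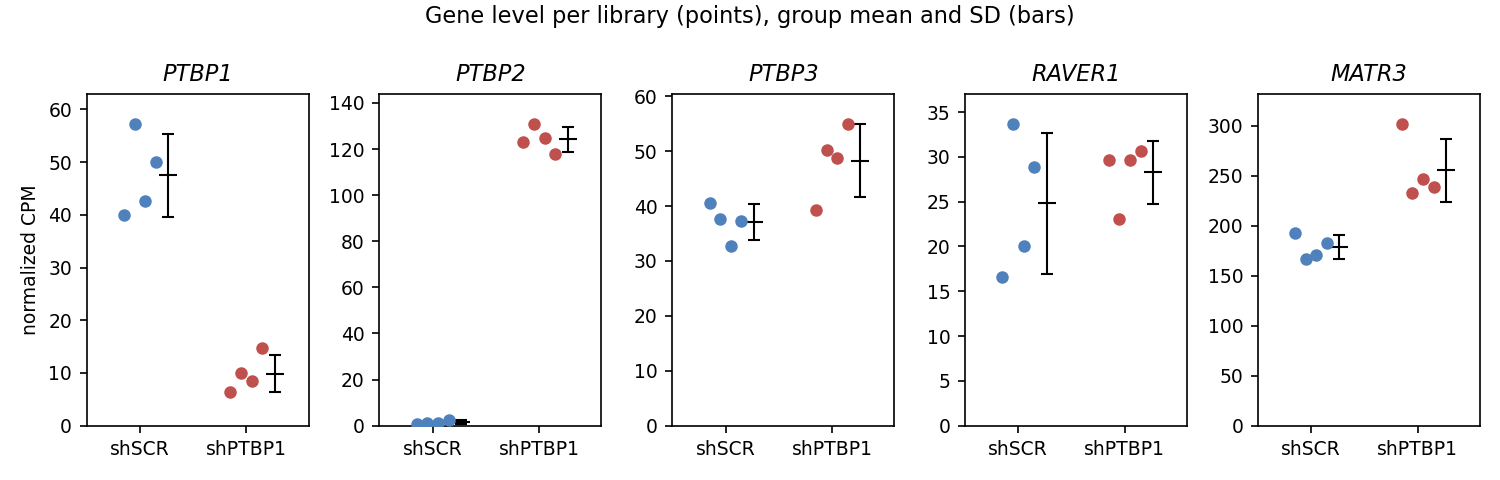
Normalized CPM (vertical axes, each from 0) of the 5 genes in the 4 shSCR (blue) and 4 shPTBP1 (red) libraries, with the group mean and SD as black bars; each point is 1 library. PTBP1, PTBP2 and MATR3 have groups that do not overlap, while PTBP3 and RAVER1 overlap.

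The PTBP1 RNA that remained after KD consisted of the same 2 main isoforms as in the controls. They differ by an exon of 78 bases at chr19:805492-805569, which lies in the linker between the second and the third RNA recognition motifs and whose inclusion is known to make PTBP1 a stronger repressor of splicing. PTBP3 has a matching exon at chr9:112234820-112234897 that was present in all of its isoforms with counts. The 2 exons are shown with the 50 of 78 bases that they share (64.1%) in capitals.
PTBP1: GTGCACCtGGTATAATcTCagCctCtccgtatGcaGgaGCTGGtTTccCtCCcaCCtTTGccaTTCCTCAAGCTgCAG
PTBP3: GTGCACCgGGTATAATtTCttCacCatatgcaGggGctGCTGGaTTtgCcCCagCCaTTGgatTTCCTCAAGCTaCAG
PTBP1-201 (ENST00000349038.8, 531 codons), which skips the exon, had 4, 7, 5 and 11 counts after shPTBP1 and 41, 49, 37 and 36 after shSCR. It fell by 2.56 on the log2 scale (SE 0.26, edgeR adjusted p = 8.34e-05). PTBP1-203 (ENST00000356948.11, 557 codons), which keeps it, had 4, 7, 5 and 10 counts after shPTBP1 and 18, 36, 22 and 31 after shSCR. It fell by 2.01 (SE 0.33, edgeR adjusted p = 0.00283), and for both isoforms all KD libraries were below all controls.

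Inclusion of the 78-base exon of PTBP1 was 50.0%, 53.3%, 58.3% and 47.6% in the shPTBP1 libraries and 36.9%, 43.8%, 40.3% and 51.3% in the shSCR libraries. Only shSCR replicate 4 reached into the range of the KD libraries. The means were 52.3% ± 4.64 (SD, n = 4) and 43.1% ± 6.16, from 30 of 58 and 127 of 292 counts (exact permutation test, two-sided, p = 0.0857). The share of PTBP1-201 in the gene was 43.2% ± 4.69 after KD and 55.4% ± 7.10 in controls, and that of PTBP1-203 was 42.2% ± 3.67 and 35.5% ± 5.79. Neither share passed the usage test of edgeR (diffSpliceDGE, unadjusted p = 0.439 and 0.402). The values after KD rest on 58 counts over 4 libraries. PTBP1-202, which was also counted, had 3 counts after shPTBP1 and 15 after shSCR, and 5 further isoforms shared 17 counts.

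The decay isoform PTBP1-207, which lacks the 34-base exon, was rare in both groups. It had 1 of 59 counts after shPTBP1 (1.69%, exact Clopper-Pearson 95% interval 0.0429% to 9.09%) and 5 of 297 after shSCR (1.68%, 0.549% to 3.88%). These intervals, and all others that rest on counts, take each count as 1 read. They cover counting error only, since amplified cDNA molecules are not independent.

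The PTBP2 RNA that appeared after KD kept the 34-base exon almost throughout. In the shPTBP1 libraries 762 counts were on isoforms with the exon and 2 on isoforms that skip it (0.262%, exact 95% interval 0.0317% to 0.942%). The controls held 7 counts with the exon and 1 without (12.5%, 0.316% to 52.7%), too few to compare. Over both groups the 3 skipping isoforms, PTBP2-207, PTBP2-210 and PTBP2-212, had 1 count each. Isoforms annotated as non-coding or subject to decay had 6 of 768 counts after shPTBP1 and 2 of 9 after shSCR.

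The main PTBP2 isoforms differed at 2 splice acceptors instead. The exon just before the 34-base exon starts at either of 2 sites, the earlier of which adds 15 coding bases, and the last exon starts at either of 2 sites that are 3 bases apart. Both are shown on the plus strand of chromosome 1 (chr1:96804755-96804819 and chr1:96813243-96813295), with the end of the intron in lower case, the bases that only the longer form keeps in capitals, and then the shared exon.
15-base extension: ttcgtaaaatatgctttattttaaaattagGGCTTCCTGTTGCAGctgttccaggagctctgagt
3-base extension: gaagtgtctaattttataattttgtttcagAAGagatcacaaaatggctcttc
The longer form of the first of these exons took 88.7%, 85.4%, 91.0% and 87.6% of the counts in the shPTBP1 libraries (674 of 765). The longer form of the last exon took 62.9%, 60.1%, 64.4% and 57.8% (469 of 765). Both shares were steady from one KD library to the next, and the 8 control counts on these exons do not allow a comparison. These 2 measures were chosen after the isoform values were seen.

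By isoform, PTBP2-201 (ENST00000370197.5, both longer forms, 537 codons) had 103, 101, 111 and 90 counts after shPTBP1 and 1, 0, 0 and 1 after shSCR. PTBP2-202 (ENST00000370198.5, without the 3 bases) had 69, 67, 60 and 70 and 0, 1, 1 and 3. The ratio of KD to control, scaled to library size, was 204 for PTBP2-201 (95% counting interval 56.1 to 1690) and 53.6 for PTBP2-202 (22.7 to 166), and the 2 intervals overlap. PTBP2-211, with a long 3′ end (12014 bases), had 33 counts after shPTBP1 and 0 after shSCR. PTBP2-203, whose first exon ends later so that it encodes 540 codons where PTBP2-211 encodes 532, had 30 and 0, and PTBP2-213, the isoform chosen as representative by MANE, had 26 and 0. With a limit of 3 counts for the control group, which a count of 0 cannot exclude, these 3 isoforms were at least 11.1-fold, 10.1-fold and 8.73-fold higher after KD. A further 8 isoforms shared 10 counts.

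The main isoforms of PTBP3 kept shares that overlapped between the groups. All 5 of its isoforms with counts are annotated as coding, and all contain the internal 34-base exon. The 298 counts after shPTBP1 and the 232 after shSCR were thus all on isoforms with this exon. Counts are given per annotated transcript, and whether any annotated PTBP3 isoform lacks the exon was not checked. The absence of counts without it may be set by the annotation, so it does not measure skipping. PTBP3-205 (ENST00000374257.6, 524 codons, chr9:112218435-112333619) held 75.8%, 73.7%, 62.2% and 61.6% of the counts of the gene after shPTBP1 and 69.7%, 61.0%, 55.1% and 60.3% after shSCR. Only shSCR replicate 1 reached into the range of the KD libraries, and the means were 68.3% ± 7.47 (SD, n = 4) and 61.5% ± 6.05 (exact permutation test, p = 0.171). PTBP3-204 (552 codons) held 14.5%, 13.2%, 18.9% and 16.3% after shPTBP1 and 12.1%, 20.3%, 26.5% and 15.5% after shSCR. PTBP3-202 (555 codons) held 8.06%, 6.58%, 10.8% and 16.3% after shPTBP1 and 4.55%, 10.2%, 12.2% and 13.8% after shSCR. Both pairs of groups overlapped. The rare PTBP3-207 had 1 count after shPTBP1 and 5 after shSCR, with shares of 0 to 1.35% and 1.52% to 3.45%, which did not overlap (exact permutation test, p = 0.0286). This rests on 6 counts, too few for the edgeR tests, and its normalized CPM overlapped. Over all isoforms tested, 10.7% had shares that did not overlap.

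PTBP3 has 2 alternative exons near its 5′ end. The first, also of 34 bases but unrelated to the exon above (chr9:112330441-112330474), goes with a start codon in the first exon and is in PTBP3-202 and PTBP3-204. It was included in 22.6%, 19.7%, 29.7% and 32.6% of counts after shPTBP1 and 16.7%, 30.5%, 38.8% and 29.3% after shSCR (exact permutation test over 4 and 4 libraries, p = 0.657). The second, of 170 bases (chr9:112275844-112276013), is missing only from PTBP3-203, whose coding sequence is 1371 bases where that of PTBP3-205 is 1572. It was included in 94.8% ± 2.42 and 92.5% ± 3.36 of counts (exact permutation test, n = 4 each, p = 0.314). At the isoform level PTBP3-205 had 47, 56, 46 and 53 counts after shPTBP1 and 46, 36, 27 and 35 after shSCR. In normalized CPM its groups did not overlap, as for 13.1% of all transcripts tested (6.61% lower, 6.47% higher), and its log2 fold change of 0.50 (SE 0.16) missed the threshold (edgeR adjusted p = 0.103).

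**Figure D3:**
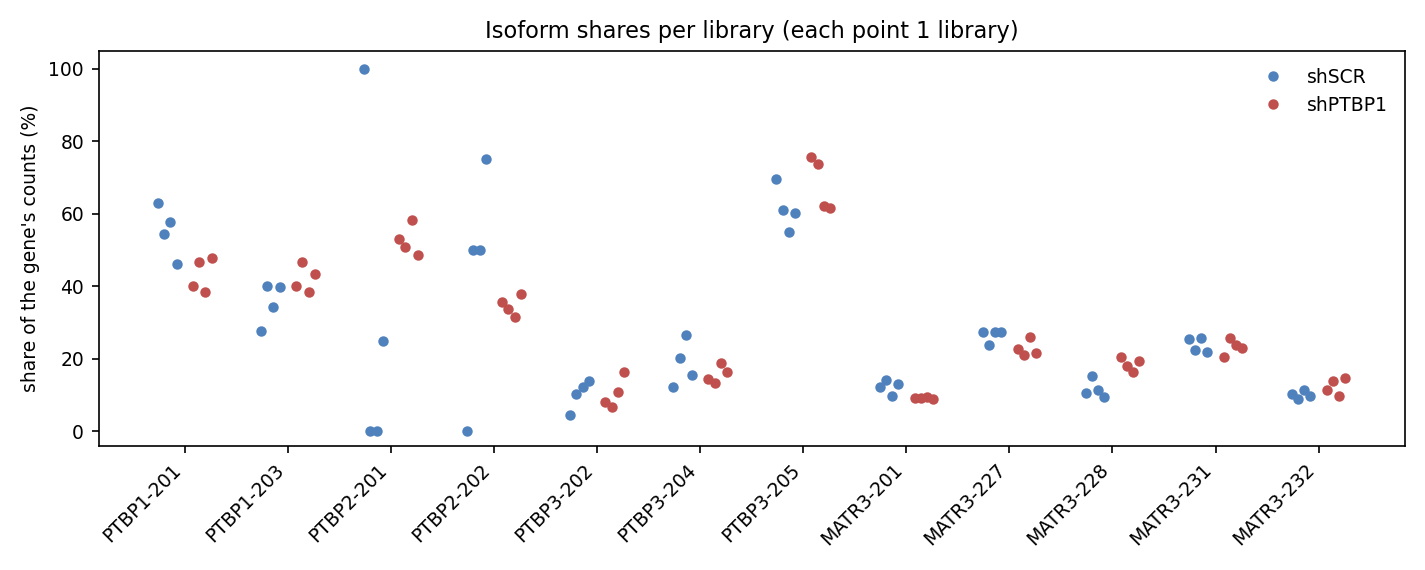
Share of each gene's counts (vertical axis, percent) held by the isoforms with a mean share of at least 10% in either group; each point is 1 library, shSCR in blue and shPTBP1 in red. RAVER1 is left out because 1 isoform holds all of its counts, and the wide scatter of PTBP2 in shSCR rests on 1 to 4 counts per library.

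To set the paralogs beside each other, each transcript count was divided by the annotated length of the transcript and scaled per 1000000 in each library. The counts are whole reads, and where 1 read stands for 1 RNA molecule this division understates long transcripts. PTBP3-205 has 7192 bases and PTBP1-203 has 3206, so order and shares depend on this step and are also given for undivided counts. On this scale PTBP1 was at 2.26, 3.63, 2.83 and 5.15 after shPTBP1 and at 15.1, 21.4, 14.5 and 17.9 after shSCR. PTBP2 was at 43.9, 42.9, 41.5 and 39.4 after shPTBP1 and at 0.226, 0.897, 0.662 and 0.904 after shSCR. PTBP3 was at 7.27, 8.89, 9.24 and 10.1 after shPTBP1 and at 8.39, 8.02, 6.60 and 7.05 after shSCR, with overlap. In controls PTBP1 was thus the most abundant of the paralogs, PTBP3 the second and PTBP2 the last in all 4 libraries, and after KD the order was PTBP2, PTBP3 and PTBP1 in all 4. Without division by length, PTBP3 was above PTBP1 in shSCR replicate 1, at 66 and 65 counts, and the other libraries had the same order as with it.

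The summed RNA level of the paralogs was not held constant. It was 53.4, 55.4, 53.6 and 54.7 after shPTBP1 and 23.7, 30.4, 21.8 and 25.8 after shSCR, which is 2.14-fold higher after KD (exact permutation test, two-sided, p = 0.0286, the smallest that 4 against 4 libraries can give). PTBP1 made up 6.36% ± 2.24 (SD, n = 4) of this sum after shPTBP1 and 67.6% ± 3.06 after shSCR. PTBP2 made up 77.3% ± 4.12 and 2.61% ± 1.13, and PTBP3 16.4% ± 2.09 and 29.8% ± 4.05. The share of PTBP3 was therefore lower after KD in every library while its own level was not. Each of the 3 shares had groups apart (exact permutation test, p = 0.0286), and they are not independent, since they sum to 100%. As a share of the undivided counts PTBP3 was at 26.4% ± 2.44 and 43.3% ± 4.72, PTBP1 at 5.36% ± 1.74 and 55.1% ± 4.29, and PTBP2 at 68.3% ± 4.10 and 1.67% ± 0.888, again with the groups apart. RNA levels say nothing here of protein.

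**Figure D4:**
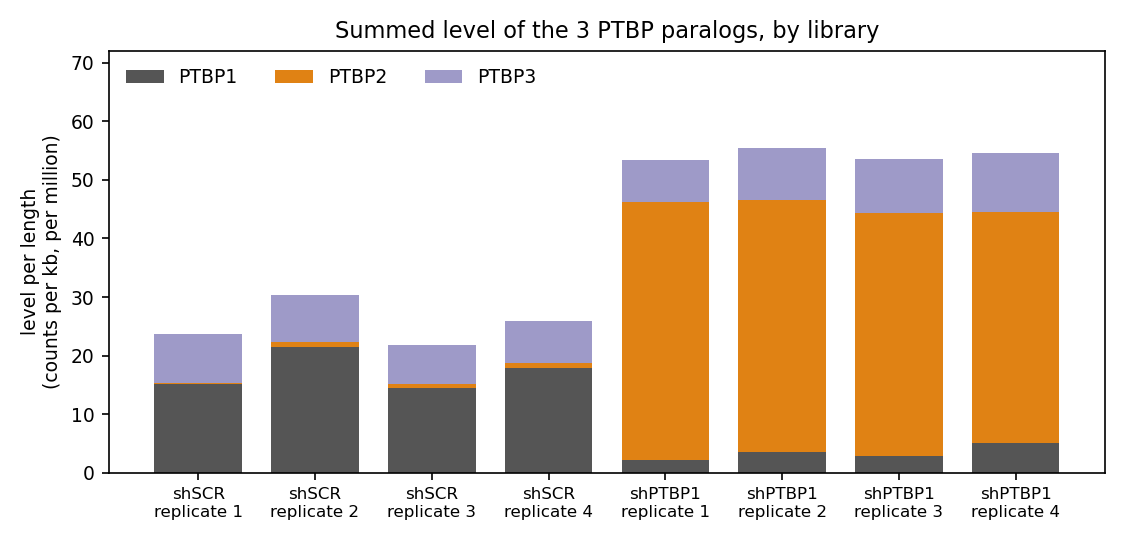
Level per transcript length (counts per kilobase, per 1000000 in each library; vertical axis) of PTBP1, PTBP2 and PTBP3, stacked for each of the 8 libraries. The 4 shPTBP1 libraries reach 53.4 to 55.4, mostly PTBP2, and the 4 shSCR libraries 21.8 to 30.4, mostly PTBP1.

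Of the cofactors, RAVER1 had a single isoform with counts, RAVER1-205 (ENST00000617231.5, 739 codons, chr19:10316212-10333529), so that its make-up could not vary. An antisense non-coding gene at the locus, ENSG00000274425, had 18 counts in all. MATR3 had the most varied make-up of the 5 genes, with 18 isoforms with counts, 12 of them with at least 10. Its transcripts begin at 2 places on chromosome 5, and GENCODE files them under 2 gene identifiers. In 5 isoforms the start is upstream (ENSG00000280987, first base 139273752), and in 10 it is downstream (first base 139293674 for ENSG00000015479, which also holds 3 isoforms with other starts).

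Counts on MATR3 isoforms with the upstream start rose after KD. The start is that of the annotated transcript to which a count was assigned. Whether the reads reached their 5′ end was not examined, and a read that did not may carry no information on the start. The upstream isoforms had 251, 207, 189 and 219 counts after shPTBP1 and 146, 126, 124 and 119 after shSCR. Every KD library was above every control, at 144 ± 14.8 against 84.8 ± 6.07 normalized CPM (SD, n = 4). The downstream isoforms had 222, 143, 183 and 153 counts after shPTBP1 and 163, 131, 125 and 159 after shSCR, with overlap, at 116 ± 22.1 against 95.1 ± 10.6 normalized CPM. Fitted as separate genes, the identifier with the upstream start rose (log2 fold change 0.77, SE 0.09, edgeR adjusted p = 0.000398). The other was at 0.26 (SE 0.13, edgeR adjusted p = 0.281). This separate fit was chosen after the data were seen.

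As a share of MATR3 counts, the upstream start took 52.6%, 58.6%, 50.4% and 58.6% after shPTBP1 and 46.5%, 48.1%, 48.4% and 41.8% after shSCR. The groups did not overlap, although shPTBP1 replicate 3, at 50.4%, lay near the highest control at 48.4% (exact permutation test, p = 0.0286). The split by start was made after the isoform values were seen, so this p describes the separation only. SNHG4, a small nucleolar RNA host gene whose transcripts with counts begin in the same first exon on the same strand, had 0 to 11 counts per library, 20 after shPTBP1 and 26 after shSCR.

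Of the isoforms with the upstream start, 3 had enough counts for a test and all were called higher, beside 2.45% of all transcripts tested. As the split by start was made after the isoform values were seen, these calls are not to be read against that share. MATR3-228 (ENST00000361059.7, 847 codons), which joins the upstream exons directly to the exon with the start codon, had 98, 64, 61 and 73 counts after shPTBP1 and 33, 40, 29 and 27 after shSCR. It rose by 1.20 on the log2 scale (SE 0.18, edgeR adjusted p = 0.00159), the highest value of the 6 MATR3 isoforms tested. MATR3-232 (ENST00000504203.5, 509 codons), which skips the exon with that start codon, had 54, 49, 37 and 55 counts after shPTBP1 and 32, 23, 29 and 28 after shSCR (log2 fold change 0.81, SE 0.17, edgeR adjusted p = 0.0150). Without shPTBP1 replicate 4 this call was lost (log2 fold change 0.75, edgeR adjusted p = 0.0543). MATR3-231 (ENST00000502929.5, 895 codons) had 98, 91, 89 and 86 counts after shPTBP1 and 80, 59, 66 and 62 after shSCR. It rose by 0.46 (SE 0.11, edgeR adjusted p = 0.0328), and the call was lost with the replicate number as a block (adjusted p = 0.0569) and with any single library left out except shSCR replicate 1 (edgeR adjusted p from 0.0598 to 0.0959). For all 3 the groups did not overlap in normalized CPM, as for 13.1% of all transcripts tested (6.47% with the KD libraries higher). They are isoforms of the same gene and not separate observations.

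The isoforms with the downstream start did not pass the test. MATR3-201 (ENST00000394805.8) had 44, 32, 35 and 33 counts after shPTBP1 and 38, 37, 25 and 37 after shSCR, and MATR3-227 (ENST00000618441.5) had 108, 74, 98 and 81 and 86, 62, 70 and 78. Both encode the same 847 codons as MATR3-228. Their log2 fold changes were 0.08 (SE 0.18, edgeR adjusted p = 0.851) and 0.30 (SE 0.14, edgeR adjusted p = 0.257), and that of MATR3-203 was 0.59 (edgeR adjusted p = 0.218).

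**Figure D5:**
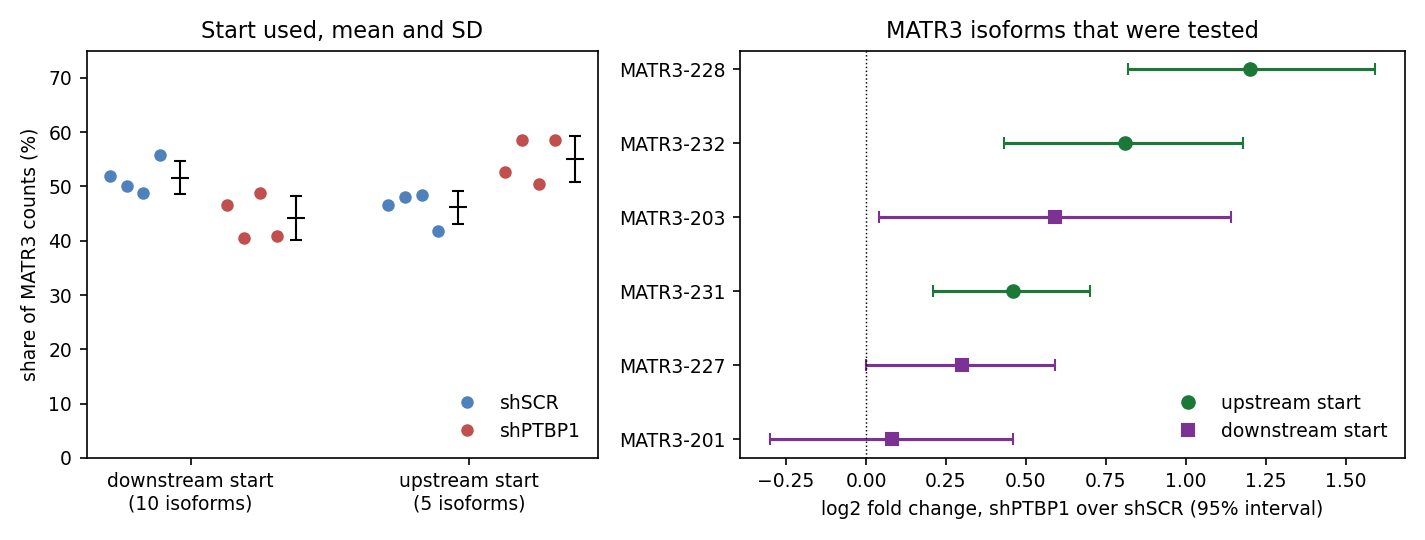
Left, share of MATR3 counts (percent) on isoforms with the downstream or upstream start, with 1 point per library (shSCR blue, shPTBP1 red) and bars for mean and SD; right, log2 fold change of each tested MATR3 isoform with its 95% interval, with circles for the upstream and squares for the downstream start. The shares of the upstream start run from 50.4% to 58.6% with shPTBP1 and from 41.8% to 48.4% with shSCR.

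Within the upstream isoforms, 2 exons of the 5′ untranslated region of 103 and 123 bases separate MATR3-231 from MATR3-228. The 123-base exon (chr5:139293453-139293575) was included in 39.4%, 44.9%, 47.1% and 40.2% of counts after shPTBP1 and 55.5%, 49.2%, 53.2% and 53.8% after shSCR. Here the groups did not overlap, with means of 42.9% ± 3.70 (SD, n = 4) and 52.9% ± 2.66 (exact permutation test, p = 0.0286). The 103-base exon (chr5:139291972-139292074) was included in 42.3% ± 3.89 and 51.7% ± 3.46, with overlap (exact permutation test, n = 4 each, p = 0.0571). Of 9 exons in the 5 genes that could be measured this way, this was 1, and over all genes 8.19% of 5675 exons had groups that did not overlap (3.86% lower, 4.33% higher). The share of 1 in 9 is near that background.

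MATR3-231 also carries a longer form of a coding exon, by 144 bases, which keep the reading frame. The start of this exon is shown from chr5:139325266-139325459 on the plus strand because it is the only difference in coding sequence between MATR3-231 and MATR3-228. The end of the intron is in lower case, the added bases in capitals, and the exon shared by both follows.
144-base extension: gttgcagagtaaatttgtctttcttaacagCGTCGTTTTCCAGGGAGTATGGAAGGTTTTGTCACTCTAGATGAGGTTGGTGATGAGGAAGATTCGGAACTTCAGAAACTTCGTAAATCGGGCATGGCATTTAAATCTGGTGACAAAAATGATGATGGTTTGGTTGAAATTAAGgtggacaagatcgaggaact
The longer form took 24.0% ± 2.24 (SD, n = 4) of the counts of the exon after shPTBP1 and 24.8% ± 1.61 after shSCR, with overlap (exact permutation test, p = 0.657). A second coding difference, inclusion of the 1089-base exon with the start codon (chr5:139307239-139308327), was 77.8% ± 1.29 and 80.0% ± 1.25 (exact permutation test, n = 4 each, p = 0.0571). Exons of 62 and 122 bases were included in 91.7% ± 1.77 and 91.7% ± 1.79, and in 97.6% ± 0.511 and 97.0% ± 0.485, of counts.

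Across the 5 genes, 13 isoforms had enough counts for a test of level and 7 were called (edgeR, adjusted p under 0.05), beside 5.45% of 10207 transcripts (3% lower, 2.45% higher). These were PTBP1-201 and PTBP1-203 lower, and PTBP2-201, PTBP2-202, MATR3-228, MATR3-231 and MATR3-232 higher. The 2 PTBP1 isoforms belong to the targeted gene, and the 2 of PTBP2 entered the test only through their counts after shPTBP1. The remaining 3 are all of MATR3. The count of 7 is therefore not to be read against the share over all transcripts. By isoform usage, which asks whether an isoform changed differently from the rest of its gene, 0 of 12 were called by diffSpliceDGE of edgeR, beside 1.12% of 5464. At an unadjusted p under 0.05 there were 2 of 12, beside 6.61%, and diffSplice of limma also called 0, with 3 at an unadjusted p under 0.05. The 2 were MATR3-228 and MATR3-201. MATR3-228 held 20.5%, 18.1%, 16.3% and 19.5% of MATR3 counts after shPTBP1 and 10.5%, 15.3%, 11.3% and 9.47% after shSCR. The groups did not overlap (as for 10.7% of all isoforms tested, 5.22% lower and 5.49% higher), with an unadjusted p of 0.00113 and an edgeR adjusted p of 0.0587. With limma the adjusted p was 0.00823, and the change of 6.97 percentage points was under the 10 required for a call. MATR3-201 held 9.22%, 9.07%, 9.33% and 8.82% after shPTBP1 and 12.1%, 14.1%, 9.77% and 13.0% after shSCR, without overlap (unadjusted p = 0.0428, edgeR adjusted p = 0.685).

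RNA of MATR3 that is annotated as non-coding was scarce. It held 1.41% ± 0.294 (SD, n = 4) of counts after shPTBP1 and 2.72% ± 1.07 after shSCR (22 and 30 counts), without overlap (exact permutation test, p = 0.0286). Of these counts, MATR3-211, a retained-intron transcript, held 9 after shPTBP1 and 24 after shSCR, and MATR3-210, also annotated with a retained intron, held 12 and 6. When counts were divided by transcript length the difference was smaller and the groups overlapped (exact permutation test, p = 0.771). In PTBP1 the corresponding counts were 4 of 61 and 7 of 297, and PTBP3 and RAVER1 had 0.

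Other genes of this kind were also examined. Of 21 other proteins that bind polypyrimidine tracts or partner the members (hnRNPs, PCBP, U2AF, SFPQ, NONO, CELF1, MBNL1, TIA1 and others), 18 were tested. By edgeR or by DESeq2 0 were called, beside 5.54% of the 7596 genes tested by edgeR. With 18 genes, 0 calls is near that share. At an unadjusted edgeR p under 0.05 there were 2. The median log2 fold change was -0.04, beside 0.00 over all genes tested. QKI (quaking), a splicing regulator on this list, had 26, 597, 24 and 584 counts after shPTBP1 and 721, 719, 600 and 540 after shSCR (log2 fold change -1.04, SE 0.63, edgeR adjusted p = 0.402). Replicates 1 and 3 of shPTBP1 were far below all other libraries, and it is named here because of these values. Of 44 isoforms of the listed genes, 0 were called in usage by edgeR or limma, and 0 had an unadjusted edgeR p under 0.05. Over all 5464 isoforms tested by edgeR these shares were 1.12% and 6.61%, so that 0 calls of 44 is near the first. U2AF1 was listed at 0 in all libraries. Reads of low mapping quality were dropped before counting, so a count of 0 does not show that its RNA was absent. Among genes with exons described in textbooks as controlled by PTB, PKM (pyruvate kinase, log2 fold change -0.62, edgeR adjusted p = 2.2e-05) and CASP2 (caspase 2, -0.72, edgeR adjusted p = 0.0201) fell. Of 7 isoforms tested in 3 of these genes, 1 was called in usage, beside 1.12% of all isoforms tested. USP5-201, the form of this deubiquitinase whose alternative exon is 69 bases longer than in USP5-202, held 24.2% ± 3.59 (SD, n = 4) of USP5 counts after shPTBP1 and 4.78% ± 2.53 after shSCR (edgeR adjusted p = 4.21e-07), while USP5 itself was at -0.15 (edgeR adjusted p = 0.328).

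As a description, the tested genes whose log2 CPM was most like that of PTBP1 over the 8 libraries were ZEB1 (Pearson r = 0.997), ENSG00000244459 (0.98) and ID3 (0.98). For PTBP2 they were GNA11 (0.992), LSM2 (0.988) and PIGT (0.987). For PTBP3 they were TUT4 (0.944), CHCHD7 (0.936) and C17orf49 (0.934). For PTBP1 and PTBP2 these correlations follow the difference between the 2 groups, which the 8 libraries share. The genes listed for PTBP3 were also higher after shPTBP1 than after shSCR in mean CPM (TUT4 16.4 and 12.3, CHCHD7 447 and 361, C17orf49 42.8 and 35.3). All are the highest values among 7596 tested genes over only 8 libraries, and how high such values run by chance was not tested.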

How the data were processed

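RNA of MOLM-13 cells was read as nanopore cDNA in 4 shPTBP1 and 4 shSCR libraries. Alignment by the authors was with minimap2 against hg38, reads of low mapping quality were dropped, and StringTie gave the transcript counts; versions and the annotation are not given in the sources used here. The deposited counts are whole reads per transcript without normalization. The second deposited table is in CPM of the same counts (largest difference 4.998e-07) and was used only for this check. Totals were 1528449 to 1613342 counts per library.

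Transcripts were assigned to genes by identifier in GENCODE 44 (252562 of 254070; the other 1508 were left out of gene sums). The 2 identifiers of MATR3 were summed. Genes and transcripts were tested over the whole table with edgeR 4.0.16 (TMM, filterByExpr with minimum count 10, quasi-likelihood), with calls at a p under 0.05 after Benjamini-Hochberg adjustment. Isoform usage was tested with diffSpliceDGE and called with a change of share of at least 10 percentage points; the study's IsoformSwitchAnalyzeR was not used. Shares and exon inclusion were compared by exact two-sided permutation tests over the 8 libraries, without adjustment. An exon was measured where at least 10 counts included and 10 skipped it. For correlations, log2 CPM had a prior count of 2. Sequences came from hg38.

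The members, lists, tests and named genes were chosen with earlier results of these data known. The text names the 5 members, called genes of the lists, most isoforms with at least 10 counts, and the 3 genes most like each paralog. Isoforms above that limit that are not described are MATR3-215 (70 counts in all), MATR3-206 (17), MATR3-208 (11) and MATR3-229 (11). Some results on the list of PTB-controlled genes are not reported here. Alternatives were DESeq2 1.42.0, limma 3.58.1, DESeq2 size factors, no filter, a replicate block, other weights by length, coding isoforms only, and leaving out each library. On simulated counts edgeR recovered 73.8% of genes changed by 1 and 97.1% of those changed by 2 on the log2 scale among 7371 genes. It also called 13 unchanged genes. With the 2 main isoforms of 100 genes swapped, diffSpliceDGE called an isoform in 95% of these genes, with 5118 isoforms tested. It also called 3 unchanged genes, and the rule of 10 percentage points was not applied. A full swap is a large change, so this does not measure how often smaller shifts of share would be found. R 4.3.3 and Python 3.11.15 were used.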

Additional observations from a re-analysis of the deposited data

Results flagged for a closer look

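In 3 of 60 groups of 4 libraries examined, 1 library stood apart from the others by Dixon's criterion, which chance meets in about 1 of 20 groups, so that 3 is the number chance gives. RAVER1 was at 23.1 normalized CPM in shPTBP1 replicate 2 whereas the remaining 3 of its group ran from 29.6 to 30.7. The share of MATR3-227 was 23.7% in shSCR replicate 2 whereas the remaining 3 ran from 27.3% to 27.4%. Inclusion of a form of the MATR3 exon with the start codon that begins 2 bases later (139307241 to 139308327) was 9.23% in shSCR replicate 4, from 6 counts, and 0 in the other shSCR libraries.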

How the results depend on the processing

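The gene-level calls of PTBP1, PTBP2 and MATR3, and the missing calls of PTBP3 and RAVER1, were the same with DESeq2, limma-voom, DESeq2 size factors, no filter, the replicate block and each library left out; leave-one-out log2 fold changes of MATR3 were 0.43 to 0.56. An alternative chosen after seeing the data, the 2 MATR3 identifiers kept apart, left ENSG00000015479 at 0.26 (edgeR adjusted p = 0.281). Libraries with the same replicate number showed no shared deviation from their group means over all genes (correlations -0.0327 to 0.00892). This does not show whether they were prepared together. With the replicate block 4 member isoforms were called higher instead of 5, as MATR3-231 at 0.46 had an edgeR adjusted p of 0.0569. No other member call changed with the block. Without a filter 8 were called higher, and with 1 library left out 3 to 5, with 3 without shPTBP1 replicate 4. Without 1 library the exact test cannot go below 0.0571, so that the differences in paralog share lost their call by construction: PTBP1 -62.5 to -60.2, PTBP2 73.0 to 76.4 and PTBP3 -14.6 to -11.6 percentage points. With 1 library left out, small differences changed sign: MATR3-201 level -0.02 to 0.13, and, in percentage points of share or inclusion, MATR3-203 -0.407 to 1.13, MATR3-231 -1.46 to 0.286, the MATR3 exons from 139307241 (-1.82 to 1.26) and 139314675 (-0.815 to 0.771), and the PTBP3 exon from 112330441 (-6.71 to 0.656). The share of PTBP2-202, at -9.09 points with 5 control counts, also did (-23.7 to 1.33). Without division by length the differences in paralog share were -49.7 (PTBP1), 66.6 (PTBP2) and -16.9 points (PTBP3), with the groups still apart. Depth limits the shares of PTBP1 after KD and of PTBP2 in controls.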
